A study of Mus musculus with 20 samples.

Results

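The step from undifferentiated wild-type (WT) mouse ES cells to sorted Flk1+ mesoderm was read on 4 of the 20 arrays of the study, 2 of WT ES cells and 2 of WT Flk1+ cells. The comparison covered all 18194 genes to which a probe set of the array could be assigned. The arrays were chosen by their labels alone, so that no measured value had a part in the choice. The study asked how DNA methylation limits the action of the transcription factor Gata4 in mesoderm, and its other arrays held cells without Dnmt3a and Dnmt3b (DKO), primitive endoderm (PE) and mesoderm cultured on without or with dexamethasone (Dex- and Dex+). All WT cells came from the J1 line of the strain 129Sv/Jae, and DKO cells carried both deletions (Dnmt3a-/-Dnmt3b-/-). Both ES arrays were made from a stable clone that carries Gata4GR, Gata4 fused to the part of the glucocorticoid receptor that binds its ligand. No Dex was given to any of the 4 cultures, so the fusion protein was not activated by the experiment. ES cells grew on gelatin in medium with leukemia inhibitory factor (LIF), without feeder cells. Flk1+ cells came from ES cells spread on type IV collagen for 4 days without LIF, released with trypsin, stained with antibodies and sorted for Flk1 and PDGFRα together. The Flk1+ array of replicate 1 was of the parental J1 line without the transgene, and that of replicate 2 was of the same transgenic clone as the ES cells. The DKO Flk1+ arrays were divided in the same way, and all PE, Dex- and DKO ES arrays were of transgenic clones. There was 1 WT clone, so line and replicate cannot be told apart within the Flk1+ group.

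Mouse ES cells hold the state of the early epiblast through a circuit of transcription factors built on Oct4 (Pou5f1), Sox2 and Nanog. In the embryo, epiblast cells that receive Nodal, Wnt and BMP signals pass through the primitive streak, switch on T-box and homeobox factors, loosen their epithelial contacts and migrate away as mesoderm. Flk1, the VEGF receptor encoded by Kdr, and PDGFRα, the PDGF receptor encoded by Pdgfra, are both found on early mesoderm, from which lateral plate, cardiac, vascular and blood lineages arise.

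The promoters of 4 genes of this step carry letters known as binding motifs of POU and SOX factors, of the Wnt pathway or of serum response factor. They are shown as examples of genes that fell and genes that rose, and not as the largest changes. Zfp42 and Nanog fell, and Mesp1 and Sp5 rose. The sequences are the 250 bases before the gene start in RefSeq (build GRCm38.p6), written 5′ to 3′ on the strand of the gene, with motif letters in capitals. In Zfp42 (chr8:43307010-43307259, minus strand) the capitals are the octamer motif ATGCAAAT of POU factors, here read on the other strand, 186 to 179 bases before the start. In Nanog (chr6:122707239-122707488, plus strand) they are the composite SOX-POU motif TTGTNATGC, also read on the other strand, 72 to 64 bases before the start. In Mesp1 (chr7:79793591-79793840, minus strand) they are a CArG box, the motif of serum response factor, 138 to 129 bases before the start, and the TCF/LEF motif ATCAAAG of the Wnt pathway, read on the other strand, 31 to 25 bases before it. In Sp5 (chr2:70474673-70474922, plus strand) they are the same TCF/LEF motif on the other strand, 104 to 98 bases before the start.
Zfp42: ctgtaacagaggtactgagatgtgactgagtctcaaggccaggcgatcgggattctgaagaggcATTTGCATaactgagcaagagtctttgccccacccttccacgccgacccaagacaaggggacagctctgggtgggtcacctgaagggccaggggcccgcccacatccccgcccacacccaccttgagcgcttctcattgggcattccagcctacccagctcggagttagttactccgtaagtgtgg
Nanog: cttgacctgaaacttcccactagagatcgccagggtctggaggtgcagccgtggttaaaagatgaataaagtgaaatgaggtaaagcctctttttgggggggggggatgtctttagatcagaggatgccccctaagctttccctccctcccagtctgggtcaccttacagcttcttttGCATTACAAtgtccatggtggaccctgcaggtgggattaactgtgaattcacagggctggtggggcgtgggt
Mesp1: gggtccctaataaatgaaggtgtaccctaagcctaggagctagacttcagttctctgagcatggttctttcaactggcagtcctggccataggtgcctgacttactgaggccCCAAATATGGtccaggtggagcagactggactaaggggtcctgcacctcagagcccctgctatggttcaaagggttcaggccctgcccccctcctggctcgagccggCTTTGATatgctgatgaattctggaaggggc
Sp5: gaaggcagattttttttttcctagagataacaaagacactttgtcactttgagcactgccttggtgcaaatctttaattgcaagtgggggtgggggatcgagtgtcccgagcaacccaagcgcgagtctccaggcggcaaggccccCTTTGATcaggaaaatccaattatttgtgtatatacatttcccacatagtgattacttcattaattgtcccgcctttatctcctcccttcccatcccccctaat

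A promoter of this kind was found for 14453 of the 18194 genes, and both strands were searched, among them those of 880 genes that rose and 913 that fell. The octamer was found in 1.57% of all promoters, in 2.05% of those of genes that rose and in 2.96% of those of genes that fell, and the SOX-POU motif in 0.574%, 0.341% and 0.986%. The TCF/LEF motif was found in 3.15%, 3.07% and 3.40%, and the CArG box in 1.43%, 2.16% and 1.64%. The octamer and the SOX-POU motif share the letters ATGC, so that matches to them may overlap. A motif is a match of letters and not a bound site. These shares are descriptions, and most promoters of genes that changed held none of the 4 motifs. CpG dinucleotides, the targets of DNA methylation, numbered 14 in the median promoter, 19 where the gene rose and 15 where it fell. Of all promoters 21.3% held fewer than 5, against 6.02% where the gene rose and 10.7% where it fell.

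The values are log2 summaries of probe set brightness, and a change is the mean of the WT Flk1+ arrays minus that of the WT ES arrays, so that 1 means 2-fold. Its standard error follows after ±. A gene passed, and is said to have risen or fallen, where the p adjusted by the Benjamini-Hochberg method in limma was under 0.05 and the change at least 2-fold. Where leaving out 1 array ended the call of a named gene, the change in each such fit is given. Levels are compared between arrays and never between genes. By the labels the arrays are biological replicates, and the methods speak of independent experiments for each pair. The ES arrays correlated at 0.994 and had 107 genes at least 2-fold apart, and the Flk1+ arrays correlated at 0.979 with 880 genes that far apart. Both ES arrays were scanned on the first of 4 scan days and the Flk1+ arrays on the fourth and the second. ES replicate 1 and Flk1+ replicate 1 shared a chip lot, and the other arrays were of 2 further lots.

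The sorted cells carried the receptors they were sorted for. Kdr stood at 6.39 and 6.22 in the ES arrays and at 11.96 and 11.75 in the Flk1+ arrays, and Pdgfra at 6.03 and 5.81 against 11.89 and 12.83. Since the sort selected on these receptors, their changes (5.55 and 6.44) are a check of the labels and no finding. Of the markers set down for the mesoderm label, Mixl1, Mesp1, Eomes, Tbx6 and Aplnr rose. Brachyury had no probe set assigned to it alone in the annotation used here. Some of the markers of other cell types that such a culture could hold were near their ES values, and others were not. Cdh5 and Tie1 of endothelium had changes of -0.38 and 0.07. The change was 0.05 and 0.01 for Gata1 and Klf1 of red blood cells, -0.07 for Sox1 of neural tissue, 0.20 and 0.21 for Afp and Ttr of visceral endoderm and -0.04 for Nkx2-5 of the heart, and none of these passed. For Pax6, also of neural tissue, the brightest probe set gave 0.01, but its 5 probe sets ran from -1.97 to 0.21. Myl7 of the heart rose (2.57). Tek (-2.90) and Pecam1 (-1.43) of endothelium and the epithelial genes Cdh1 (-2.28) and Epcam fell. Foxa2 (1.07) of endoderm did not pass. Sox17 (7.73 and 4.43) and Dab2 (8.77 and 6.02) were far apart in the Flk1+ arrays and did not pass. Fewer cells of a type and less RNA per cell cannot be told apart in such bulk samples.

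Of the 18194 genes, 1119 (6.15%) rose and 1147 (6.30%) fell between ES and Flk1+ cells. Counts of list members given below are to be read beside these shares, and a count near them is no result about the list. The median change over all genes was 0.03. Changes of at least 4-fold were passed by 306 genes upward and 315 downward, of at least 16-fold by 51 and 41, and of at least 64-fold by 10 and 4. When each of the 4 arrays was left out in turn, 727 (65.0%) of the genes that rose and 769 (67.0%) of those that fell passed every time. As a description of the arrays these genes were chosen on, between 874 and 1022 of the 1119 and between 934 and 1033 of the 1147 were at least 2-fold apart in the direction of the call in each of the 4 pairs of 1 Flk1+ and 1 ES array.

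The 15 largest increases were led by Aplnr, the apelin receptor, which stood at 3.90 and 3.73 in the ES arrays and 12.89 and 13.21 in the Flk1+ arrays (9.24 ± 0.23, adjusted p = 5.5e-12). Beside the streak factors Lhx1, Mixl1 and Eomes and the receptors of the sort, they held 3 genes of cell surface and migration, Cdh11 (7.45), Nrp1 (6.83) and the growth arrest protein Gas1. Gas1, a membrane protein that also binds hedgehog ligands, rose from 7.33 and 7.05 to 12.24 and 12.79. Secreted signals were Rspo3 and Bmp2. Cyp26a1, which breaks down retinoic acid, went from 7.12 and 6.87 to 12.63 and 12.84 (5.74 ± 0.24). Asb4, a ubiquitin ligase subunit of early vessels, rose from 4.00 and 4.22 to 11.21 and 9.80. Fosb and Fos, immediate early factors, completed the set and are described with their class.

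The 15 largest decreases were mostly genes of ES cells and of the germ line. Trim2, a ubiquitin ligase, stood at 11.01 and 10.98 in the ES arrays and at 6.61 and 4.49 in the Flk1+ arrays (-5.44 ± 0.51, adjusted p = 1.5e-06). Hsf2bp, a meiotic recombination protein, fell from 10.26 and 10.84 to 5.24 and 5.00 (-5.43 ± 0.23). Trap1a, an X-linked tumour rejection antigen, fell too (-5.37), to 7.99 and 5.48. The lowest values lie near the floor of such an array, where differences are compressed. Enox1 (-5.32), an oxidase of the cell surface, the exchange factor Mcf2 (-5.26), the zinc finger gene Zfp936 (-5.20) and Triml1 (-5.16), a gene of the early embryo, closed the set. The others were Morc1, Dppa2, Nr0b1, Tdrd12, Fbxo15, Zfp42, Dnmt3l and Fgf4, with changes from -6.83 to -5.61.

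**Figure D1:**
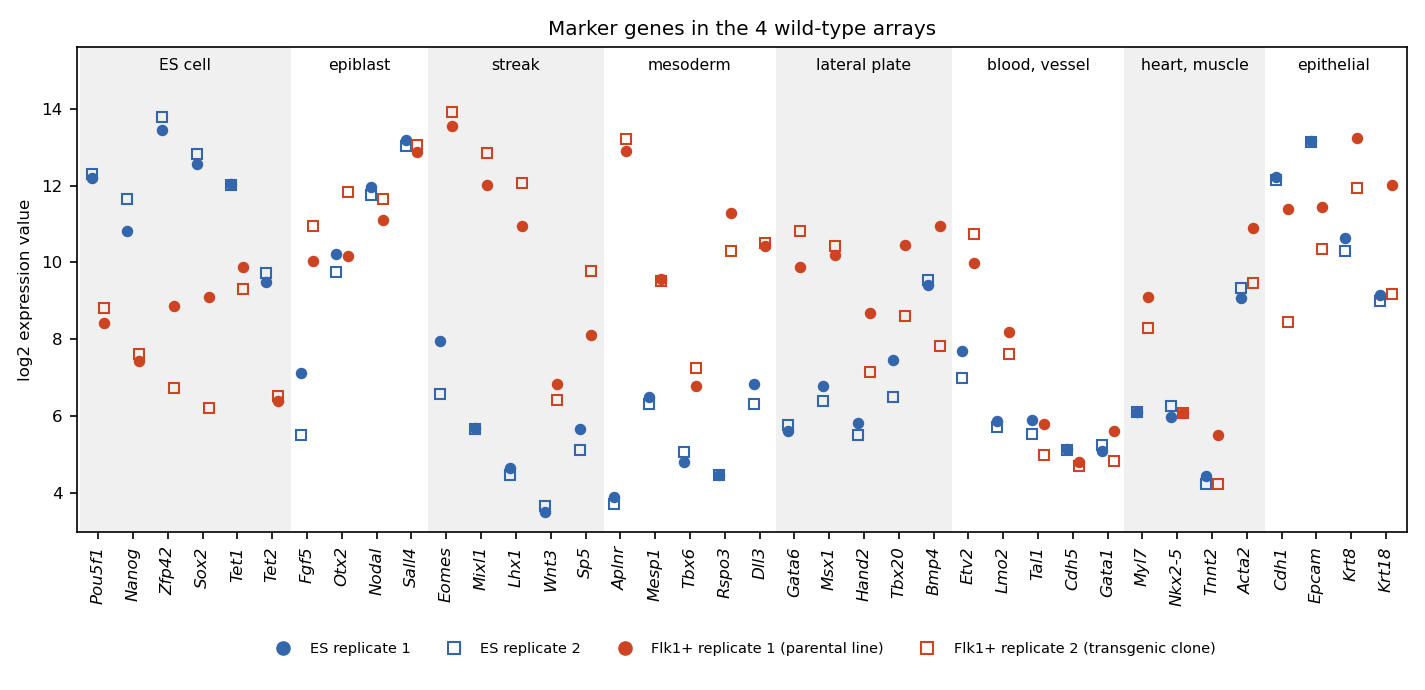
Log2 expression values of marker genes (horizontal axis, in blocks by cell type) in the 4 WT arrays. Blue points are ES arrays and red points Flk1+ arrays, filled for replicate 1 and open for replicate 2. Eomes stood at 7.95 and 6.59 in ES and 13.56 and 13.91 in Flk1+ arrays, while Tal1, Cdh5 and Gata1 were near their ES values, and Sox2, Bmp4, Cdh1 and Krt18 differed between the Flk1+ arrays.

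The ES cell circuit was lowered unevenly. Among 15 factors of naive pluripotency 11 fell and 1 rose, with a median of -2.70, and among 16 core and early embryo genes 13 fell and 0 rose, with a median of -3.49. Nanog went from 10.81 and 11.66 in the ES arrays to 7.45 and 7.63 in the Flk1+ arrays (-3.69 ± 0.41), and Esrrb, a nuclear receptor that acts with it, from 9.78 and 10.65 to 7.69 and 7.49. Pou5f1 was at 12.21 and 12.29 and then at 8.42 and 8.82 (-3.63 ± 0.23), and these were still above its values of 4.20 and 4.33 in WT cells cultured on without Dex. Sox2 fell by more in the mean (-5.03 ± 0.60), to 9.11 and 6.22, and its Flk1+ arrays were far apart. Prdm14 (-4.05), Tfcp2l1 (-4.35) and Tcl1 (-4.57) had lower values in the Flk1+ arrays by over 4 log2 units, whereas Klf4 did not pass (11.16 and 11.39 against 10.74 and 10.62). Sall4 (-0.14), Lin28a (-0.45) and Tdgf1 (0.31), the co-receptor of Nodal, did not pass either. The 1 gene of these lists that rose was Tbx3 (1.28 ± 0.26), also a factor of the lateral plate, and its call was lost without ES replicate 1 (0.99).

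Genes of the formative epiblast, the state between ES cells and streak, moved in both directions, with 4 of 14 higher and 3 lower. Fgf5, the usual marker of the epiblast after implantation, rose from 7.12 and 5.50 to 10.04 and 10.95 (4.18 ± 0.50), and N-cadherin (Cdh2) from 8.69 and 7.91 to 11.50 and 12.27. Sox4 (1.45) and Lef1 (1.28) rose too. Foxd3 fell from 7.77 and 7.40 to 4.73 and 4.85. Pou3f1 (-1.68) and the methyltransferase Dnmt3b (-1.10) fell as well. The call of Lef1 was lost without ES replicate 2 (0.96), that of Pou3f1 without ES replicate 1 (-1.2) and without Flk1+ replicate 2 (-0.48), and that of Dnmt3b without ES replicate 1 (-0.88) and without Flk1+ replicate 2 (-0.82). Without Flk1+ replicate 1 of both genotypes 7 of the 14 were higher. Otx2, at 10.23 and 9.76 in the ES arrays, was at 10.16 and 11.84 in the Flk1+ arrays, and Nodal itself was at 11.95 and 11.76 against 11.12 and 11.66, and neither passed, although a dimmer probe set of Nodal gave -1.43.

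Primitive streak factors rose together: 8 of 13 passed upward and 0 downward, with a median of 2.78 against 0.03 over all genes. Eomes, the T-box factor of the streak, Mixl1, a homeobox factor of mesendoderm, and Lhx1, a LIM homeobox factor, had changes of 6.46 ± 0.33, 6.75 ± 0.30 and 6.93 ± 0.31. Wnt3, the ligand that starts the streak, rose from 3.52 and 3.68 to 6.84 and 6.42, and Sp5, a direct target of Wnt signals whose promoter is shown above, from 5.67 and 5.11 to 8.11 and 9.78. Gsc (3.0), the organizer homeobox factor, Evx1 (2.78) and Fgf8 (1.92) rose as well. The ligand Wnt3a (0.08) and the caudal factors Cdx1 (0.15) and Cdx2 (0.08), which mark the later and more posterior streak, did not pass. Each stood in both Flk1+ arrays within 0.5 of its ES values.

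Of 15 factors of nascent mesoderm 11 rose and 1 fell (median 2.08). Mesp1, the factor of the first mesoderm to leave the streak, went from 6.51 and 6.32 to 9.57 and 9.51 (3.12 ± 0.19, adjusted p = 2.2e-08). Its Flk1+ arrays differed by less than 0.1. Snai1, the repressor of E-cadherin, rose from 5.20 and 5.23 to 7.34 and 7.86, and Tbx6, which directs cells to paraxial mesoderm, from 4.81 and 5.06 to 6.79 and 7.25. The Wnt enhancer Rspo3 (6.32) and the Wnt antagonist Frzb (5.26) both rose, as did the Notch ligands Dll1 (3.95) and Dll3 (3.90) and the growth factor Fgf3 (1.86). Fgf17 fell (-1.28). Mesp2 (1.24) passed only just, and its call was lost without ES replicate 2 (1.10) and without Flk1+ replicate 1 (0.90). Msgn1, a factor of presomitic mesoderm, stood at 5.57 and 5.44 in the ES arrays and 5.64 and 5.42 in the Flk1+ arrays.

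The fates that mesoderm later divides into were represented to different degrees. In the lateral plate list 10 of 16 rose and 0 fell (median 1.55), in the paraxial list 6 of 16 rose and 1 fell (median 0.35), and in the intermediate mesoderm list 1 of 7 rose (median -0.04). Gata6 went from 5.62 and 5.78 to 9.89 and 10.82 and Gata4 from 5.21 and 5.49 to 7.99 and 8.12 (2.71 ± 0.20). Both are factors of lateral mesoderm and of primitive endoderm. Which Gata4 probe sets read the transgene was not examined here, and the value in Flk1+ cells was about the same in the line without it. Msx1 (3.72), Irx3 (3.07) and Irx5 (1.82), homeobox factors, rose in both arrays. Msx1 was read by a probe set marked as open to cross-hybridisation, and the one left when such probe sets were set aside gave 0.99, under the 2-fold limit. Tbx20 (10.45 and 8.60 against 7.46 and 6.49 in ES arrays) and Hand2 (8.68 and 7.14 against 5.84 and 5.52) rose, with the higher value each time in replicate 1.

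Foxf1, a defining factor of the lateral plate, stood at 5.52 and 5.46 in the ES arrays. It was at 6.99 and 5.90 in the Flk1+ arrays and did not pass (0.95). Prrx1 (0.66) and Bmp4 did not pass either. Bmp4 stood at 9.42 and 9.54 in the ES arrays and at 10.95 and 7.84 in the Flk1+ arrays, one above and one below. Without Flk1+ replicate 2, 14 of the 16 lateral plate genes rose, and without Flk1+ replicate 1 of both genotypes 9 rose and 1 fell. Hand1 passed only just (1.09 ± 0.30), and its call was lost without ES replicate 2 (0.81) and without Flk1+ replicate 1 (0.75). In the paraxial list Foxc1 (2.87) and Foxc2 (1.38) rose beside the Notch ligands and Tbx6. The call of Foxc2 was lost without ES replicate 1 (1.26). Tcf15, a factor of somites that ES cells also express, fell from 8.79 and 8.44 to 5.86 and 5.59. Markers of formed somites (Pax3 0.40, Meox1 0.26, Uncx 0.24) did not pass. Lhx1 was the 1 gene of the intermediate mesoderm list that rose, and it stands in the streak list too, while Osr1 (0.22) and Pax8 (-0.08), which mark kidney precursors, did not pass.

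Most heart and muscle genes did not pass. Over all genes 6.15% rose and 6.30% fell, and the counts of these lists are to be read beside that. Of 13 cardiac progenitor factors 2 rose, Hand2 and Fgf10 (1.05), and 0 fell, and the call of Fgf10 was lost without ES replicate 2 (0.95). Without Flk1+ replicate 2 the number was 6. Isl1 stood at 6.73 and 5.48 and Mef2c at 7.11 and 6.13 in the Flk1+ arrays against 5.55 and 5.47 and 5.78 and 6.05 in the ES arrays, and neither passed. Another probe set of Isl1 gave a change of 2.22. Of 17 contractile genes of cardiac muscle 2 rose and 2 fell. Myl7, an atrial light chain, rose from 6.11 and 6.12 to 9.09 and 8.29 (2.57 ± 0.22), while titin (Ttn) fell from 8.05 and 7.58 to 4.92 and 4.72 and the heavy chain Myh6 from 7.99 and 7.23 to 4.66 and 4.90. Troponin C (Tnnc1) was at 7.45 and 5.91, and its call (1.68) was lost without ES replicate 1 (1.69), without ES replicate 2 (1.66) and without Flk1+ replicate 1 (0.91). Of 13 smooth muscle genes 1 rose and 1 fell. Acta2, smooth muscle actin, stood at 10.91 and 9.47 in the Flk1+ arrays and 9.07 and 9.32 in the ES arrays and did not pass. The gene that rose was Cald1 (1.12), a binder of actin, and its call was lost without ES replicate 1 (1.11), without ES replicate 2 (1.12) and without Flk1+ replicate 1 (0.19). The gene that fell, the light chain Myl9 (-1.30), lost its call without ES replicate 1 (-1.07), without ES replicate 2 (-1.53) and without Flk1+ replicate 2 (-0.80).

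Some regulators of vessels and blood rose, and few of the surface proteins of endothelium did. Etv2, the ETS factor that commits mesoderm to endothelium and blood, went from 7.70 and 7.01 to 9.99 and 10.74 (3.01 ± 0.32, adjusted p = 5.7e-06), Ets1 from 6.59 and 6.91 to 10.54 and 10.14, Runx1 from 5.19 and 4.89 to 7.68 and 7.27 and Lmo2 from 5.88 and 5.73 to 8.20 and 7.63. Together with Gata2 (1.70) these were 5 of 14 in the list of hemangioblast and endothelial regulators, and 0 fell. Tal1, the factor that with Lmo2 and Gata2 starts blood formation, stood at 5.79 and 4.98 where the ES arrays had 5.91 and 5.55, and Fli1 (0.41), Erg (0.30) and Sox7 (-0.01) did not pass. Among 15 endothelial surface genes only the VEGF receptor Flt1 rose (5.81 and 5.84 to 8.52 and 8.55). Tek, the angiopoietin receptor, fell from 7.62 and 7.93 to 5.02 and 4.75, and Cd34 (-1.43) and Pecam1 (-1.43), both of which stood higher in the ES arrays, fell too. The call of Pecam1 was lost without ES replicate 2 (-1.01). Of 14 blood genes 0 rose and 1 fell, beside 6.15% and 6.30% of all genes. That gene was Myb (-2.36), and the embryonic globins Hbb-bh1 (0.20) and Hba-x (0.22) did not pass.

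Genes of other early lineages gave a mixed picture. In the list of axial mesendoderm and definitive endoderm 1 of 13 fell, the hormone precursor Trh (-3.88), and 3 rose, Gsc, the chemokine receptor Cxcr4 (4.17 and 4.22 to 8.57 and 8.5) and the forkhead factor Foxa1 (1.35), whose call was lost without ES replicate 2 (0.76). Foxa2 (1.07) and Sox17 (7.73 and 4.43 in the Flk1+ arrays) did not pass, nor did the secreted antagonists Cer1 (0.10, or 1.53 by its dimmer probe set) and Chrd (0.37). Of 20 primitive endoderm genes 6 rose, and these were the GATA factors Gata4 and Gata6, the type IV collagens Col4a1 (3.15) and Col4a2 (3.06), the forkhead factor Foxq1 (3.99, or 0.92 and not passed by a probe set not marked as open to cross-hybridisation) and the parathyroid hormone receptor Pth1r (2.19), whereas Dab2 (-0.16), Afp (0.20) and Ttr (0.21) did not pass. The endocytic receptor Cubn fell (-1.42), and its call was lost without ES replicate 1 (-1.2) and without Flk1+ replicate 2 (-1.13). The summed signal of the list, on the linear scale, was 3726 and 2826 in the ES arrays, 10952 and 8515 in the Flk1+ arrays and 110785 and 113527 in the PE arrays. Without Flk1+ replicate 1 of both genotypes 6 rose and 6 fell, and without Flk1+ replicate 2 the list had 10 that rose and 0 that fell. Of 12 trophoblast genes 5 rose, among them Gata3 (1.69), and 2 rose without Flk1+ replicate 1 of both genotypes. Among 16 neuroectoderm genes Ncam1, an adhesion molecule also found on mesoderm, rose (2.73) and the tubulin Tubb3 fell (8.47 and 8.37 to 5.10 and 4.87).

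Of 19 genes of mesenchyme and of the transition to it 13 rose and 0 fell (median 1.57), and 12 rose without Flk1+ replicate 1 of both genotypes. Cadherin 11 (Cdh11) went from 3.49 and 3.88 to 10.88 and 11.38, Zeb2 from 4.27 and 4.41 to 7.76 and 7.56 and Twist1 from 5.79 and 4.28 to 8.05 and 8.34. Zeb2 and Twist1 are repressors of epithelial genes. Vimentin (Vim, 2.04), fibronectin (Fn1, 1.93) and the proteases Mmp2 (1.51) and Mmp14 (1.75) rose as well. Snai2 (1.57), a relative of Snai1, was at 8.94 and 6.92 in the Flk1+ arrays, and its call was lost without ES replicate 1 (1.73), without ES replicate 2 (1.41) and without Flk1+ replicate 1 (0.56).

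In the epithelial list 9 of 29 junction, keratin and splicing genes fell and 2 rose (median -0.94). E-cadherin (Cdh1) stood at 12.22 and 12.16 in the ES arrays and at 11.38 and 8.45 in the Flk1+ arrays (-2.28 ± 0.74, adjusted p = 0.033), and its call was lost without ES replicate 1 (-2.24), without ES replicate 2 (-2.31) and without Flk1+ replicate 2 (-0.81). The adhesion molecule Epcam went from 13.15 and 13.13 to 11.45 and 10.35, the factor Grhl2 from 9.76 and 9.25 to 7.55 and 7.07 and the splicing regulator Esrp1 from 10.85 and 10.68 to 9.28 and 9.28, and all 3 fell in both arrays. Keratin 8 (Krt8, 10.63 and 10.30 to 13.24 and 11.92) and desmoplakin (Dsp, 9.65 and 9.49 to 12.08 and 11.28) rose, while Krt18 and Krt19 were higher in replicate 1 (12.03 and 9.19 for Krt18, 10.37 and 7.79 for Krt19) and did not pass. The count depended on the arrays: without Flk1+ replicate 1 of both genotypes 18 fell and 2 rose, without Flk1+ replicate 2 only 5 fell and 4 rose, and with the chip lot as a block 5 fell and 3 rose. In replicate 2, 16 of the 29 were at least 2-fold lower than in replicate 1. The summed signal of the list was 33053 and 31377 in the ES arrays and 39625 and 16363 in the Flk1+ arrays, and whether other cells gave part of it was not tested.

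Matrix genes rose in part, 12 of 34, and 3 fell (median 0.62). Has2, the enzyme that makes hyaluronan, went from 5.95 and 5.40 to 9.35 and 9.67 (3.83 ± 0.42), fibrillin 2 (Fbn2) from 5.14 and 4.93 to 8.52 and 7.92 and the proteoglycan Vcan from 8.73 and 8.73 to 10.04 and 10.02. Col18a1 of the basement membrane fell (11.36 and 11.29 to 10.29 and 7.42). Fibrillar collagens depended on the array, with Col1a2 at 10.03 and 7.51, Col3a1 at 7.76 and 4.28 and Col5a2 at 9.37 and 6.53 in the Flk1+ arrays, and Col3a1 did not pass. The call of Col5a2 was lost without ES replicate 1 (2.22), without ES replicate 2 (2.23) and without Flk1+ replicate 1 (0.80). Without Flk1+ replicate 2, 18 matrix genes rose and 1 fell. Of 16 integrins 2 rose and 1 fell, beside 6.15% and 6.30% of all genes. Itga8, a receptor for fibronectin and nephronectin, rose from 5.83 and 5.35 to 9.53 and 9.65, Itgb7 fell (-1.2), and the call of Itgav (1.06), which rose, was lost without Flk1+ replicate 1 (0.69).

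Receptors that steer cells were among the genes that changed most. In the apelin and chemokine axes the receptors rose and the ES cell ligand fell: Aplnr, Cxcr4 (4.34 ± 0.16) and Ackr3 (6.12 and 6.12 to 10.29 and 8.64), the scavenger receptor for the ligand of Cxcr4, rose, while Apela, a small secreted ligand of Aplnr, fell from 10.71 and 10.84 to 7.47 and 5.37. The other ligands, Apln (0.70) and Cxcl12 (0.60), did not pass. Of 37 guidance receptors and ligands 13 rose and 2 fell (median 0.59). Neuropilin 1 (Nrp1), which binds semaphorins and VEGF, went from 4.41 and 4.27 to 11.68 and 10.67, and its partner plexin A2 (Plxna2) from 5.43 and 5.25 to 10.05 and 10.64. Sema6d, a ligand of plexins, rose from 5.15 and 5.19 to 9.17 and 9.99. Further increases were those of the ephrin Efna5 (2.76), Sema4c (2.49), the Slit receptor Robo1 (2.18), Slit3 (1.68) and the netrin receptor Unc5b (1.94). Netrin 1 (Ntn1, -1.37, or 0.02 by its other probe set) and the ephrin receptor Epha2 (-1.65) fell. The secreted ligands Slit2 (1.91) and Sema3a (2.17) rose, but the call of Slit2 was lost without Flk1+ replicate 1 (1.05) and that of Sema3a without ES replicate 1 (2.10) and without Flk1+ replicate 1 (1.09).

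In the VEGF and PDGF list 6 of 15 rose and 1 fell. Beside the receptors of the sort, the receptors Flt1 and Pdgfrb (4.15 and 4.54 to 8.96 and 7.18) rose. Pdgfrl, a protein related to the PDGF receptors, rose from 5.57 and 5.71 to 8.49 and 7.53. Of the ligands, Vegfa rose (5.69 and 7.01 to 8.09 and 7.73) and Pdgfc fell (10.53 and 10.67 to 9.97 and 5.72), and their calls were lost without ES replicate 1 (0.90) for Vegfa and without ES replicate 1 (-2.83), without ES replicate 2 (-2.69) and without Flk1+ replicate 2 (-0.63) for Pdgfc. Pdgfa (-0.69), Vegfb (0.80) and Vegfc (-0.45) did not pass.

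FGF ligands exchanged places. Fgf4, the autocrine ligand of ES cells, went from 11.91 and 12.01 to 7.25 and 5.45 (-5.61 ± 0.40), and Fgf5, Fgf8, Fgf3 and Fgf10 rose, while of the receptors only Fgfr1 passed (1.22, or 0.81 and not passed without probe sets open to cross-hybridisation). In all 5 of 19 rose and 2 fell, the second being Fgf17. The feedback genes of the FGF and ERK pathway did not move as 1 group. Etv5 (from 11.02 and 11.07 to 8.80 and 9.17) and Spry4 (-1.42) fell, Flrt3 (1.78) and Dusp4 (1.27) rose, and Dusp6 (0.53), Spry2 (-0.89) and Etv4 (-0.81) did not pass.

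Wnt ligands and receptors rose in 7 of 30 cases and fell in 1, and antagonists and targets in 8 and 1 of 25. Wnt5a, a ligand that acts mostly without β-catenin, stood at 5.37 and 3.93 in the ES arrays, far apart, and at 9.81 and 9.31 in the Flk1+ arrays (4.91 ± 0.48), and Wnt5b (1.84) and Wnt2 (2.32) rose beside Wnt3. The frizzled receptors shifted: Fzd5 fell from 11.42 and 11.69 to 8.55 and 9.45, and Fzd1 (6.62 and 6.21 to 9.65 and 9.06), Fzd2 (2.03) and Fzd7 (1.18) rose. The target and feedback gene Axin2 rose from 8.76 and 8.26 to 10.39 and 10.15, and the zinc finger factor Sp8 from 4.75 and 4.5 to 7.85 and 7.98. The antagonist Dkk1, which blocks Lrp co-receptors, rose from 5.06 and 4.84 to 9.95 and 8.73, and Notum, an enzyme that inactivates Wnt proteins, fell (7.66 and 7.98 to 6.02 and 5.01). Tcf7l2 (1.24), a nuclear partner of β-catenin, lost its call without ES replicate 2 (0.92).

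Components of the Nodal and TGFβ pathway rose in 7 of 24 cases and fell in 3. The activin antagonist follistatin (Fst) went from 7.44 and 7.24 to 10.73 and 11.33 and the co-receptor Tgfbr3 from 6.79 and 6.96 to 10.38 and 10.41. Gdf3, a Nodal-like ligand of ES cells, fell from 11.21 and 11.38 to 7.09 and 6.33, and the Nodal antagonist Lefty1 fell too (9.41 and 10.67 to 8.16 and 8.65), while Lefty2 did not pass (0.48). Tgfb2 was at 9.03 and 4.87 in the Flk1+ arrays against 4.56 and 4.53 in the ES arrays and did not pass.

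The BMP list had 16 of 31 members that rose and 0 that fell (median 1.09). Bmp2 stood at 4.19 and 4.08 in the ES arrays and at 10.54 and 9.61 in the Flk1+ arrays (5.93 ± 0.43), and the extracellular modulator Bmper at 4.97 and 4.54 against 10.17 and 9.46 (5.06 ± 0.38). Bmp7 (1.58) rose, and so did Bmp5 (1.79), whose call was lost without Flk1+ replicate 1 (0.74). Among receptors and transducers Acvr1 (1.55), Bmpr2 (1.25), Smad1 (10.12 and 10.01 to 12.44 and 12.68) and Smad5 (1.43) rose. Among the known targets the inhibitory Smad6 (4.97 and 4.89 to 7.88 and 6.69), Bambi (1.92), Msx1 and Msx2 (2.35) rose, whereas Id1 (-0.22) and Id2 (-0.62), the usual early targets of BMP signals, did not pass. Id3 (1.41) rose, with its call lost without ES replicate 2 (1.18) and without Flk1+ replicate 1 (0.99). The secreted antagonists Nog (0.30), Chrd (0.37) and Grem1 (0.16) did not pass. Without Flk1+ replicate 1 of both genotypes 13 of the list rose and 3 fell.

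Notch signalling rose in 7 of 20 members and fell in 0, although the median of the list was 0.21. The ligands Dll1 (6.98 and 7.10 to 10.12 and 11.86) and Dll3 (6.83 and 6.31 to 10.43 and 10.52) rose, and so did the receptor Notch3 (8.18 and 8.17 to 10.73 and 10.14) and the targets Hes1 (7.87 and 8.20 to 10.17 and 10.37), Hey1 (2.15) and Nrarp (1.91). Hey2 (1.52) rose, with its call lost without ES replicate 2 (1.30) and without Flk1+ replicate 1 (1.14). The other ligands, Jag1 (0.29), Jag2 (-0.81) and Dll4 (-0.11), and the oscillator gene Hes7 (0.07) did not pass. In the retinoic acid pathway 3 of 16 rose and 2 fell. The largest change of the list was that of Cyp26a1, while Aldh1a2, the enzyme that makes retinoic acid in the embryo, stood at 7.10 and 4.96 in the Flk1+ arrays against 5.07 and 5.22 in the ES arrays and did not pass. The receptor Rarg fell from 10.43 and 10.16 to 8.35 and 8.18, and Rxra rose from 6.32 and 6.08 to 7.80 and 8.05.

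Of 29 Hox and Cdx genes 1 rose and 0 fell, where 6.15% of all genes rose and 6.30% fell. The median of the list was 5.3 and 5.2 in the ES arrays and 5.4 and 5.6 in the Flk1+ arrays. That is in the low range of the array, where differences are compressed, and whether the members were detected at all was not tested. The gene that rose was Hoxb1, among the first Hox genes of the streak, from 4.05 and 4.29 in the ES arrays to 8.18 and 5.92 in the Flk1+ arrays (2.88 ± 0.46, adjusted p = 2.6e-04). The changes of the others lay between -0.49 (Hoxd13) and 0.65 (Hoxb3). In a limma fit to the 4 arrays alone the call of Hoxb1 was lost, with a standard error of 0.71 and an adjusted p of 0.055. Of 9 genes of Hox cofactors 3 rose and 0 fell. Meis2 went from 6.24 and 5.59 to 10.00 and 8.78 and Pbx3 from 8.29 and 8.17 to 11.31 and 10.40. Pknox2 went from 4.93 and 5.34 to 7.76 and 7.58, although its other probe set gave -0.17. Meis1 did not pass (0.23).

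Of 14 genes of the DNA methylation machinery 4 fell and 0 rose (median -0.82). Dnmt3a did not pass by its brightest probe set, and its 5 probe sets had changes from -0.77 to 1.12. Dnmt3l, the cofactor of the de novo enzymes, stood at 12.39 and 12.32 in the ES arrays and 7.2 and 6.12 in the Flk1+ arrays (-5.70 ± 0.30). The dioxygenases Tet1 (12.04 and 12.02 to 9.87 and 9.31) and Tet2 (9.5 and 9.73 to 6.39 and 6.53), which oxidise methylated cytosine, fell, and Tet3 did not pass (0.13). Dnmt1, the maintenance enzyme, and its guide Uhrf1 had changes of -0.94 and -0.95, just short of 2-fold. Of 20 Polycomb genes 6 fell and 3 rose, and the changes ran between members of the same complex. In PRC1 the ES cell subunit Cbx7 fell from 9.79 and 10.15 to 7.63 and 6.57 and Phc1 from 12.05 and 12.10 to 10.11 and 10.12, while Phc2 rose from 7.51 and 7.33 to 9.82 and 8.83 and Bmi1 from 8.74 and 8.74 to 9.84 and 10.20. In PRC2 Eed (-1.67, or 0.05 by its other probe set), Jarid2 (-1.24) and Mtf2 (-1.28) fell, and Ezh2 (-0.53) and Suz12 (-0.11) did not pass.

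Of 20 germline and genome defence genes 10 fell and 1 rose (median -1.39). Tex19.1 (9.99 and 9.36 to 5.97 and 5.22), Mael (7.58 and 7.21 to 3.99 and 3.27), Piwil2 (-2.88), Dazl (-2.67) and Hormad1 (-2.07) fell beside Morc1, Tdrd12, Ddx4 and Sycp3. The gene that rose was Tdrd7 (5.25 and 5.16 to 7.89 and 6.72), a Tudor domain protein that somatic tissues use as well. Tdrd1 (4.03 and 4.29 against 4.25 and 4.19) and Sycp1 (4.08 and 4.12 against 3.88 and 3.54) were among the members that did not pass. The 8 genes of the list that fell and have a promoter in the table held a median of 18 CpG in it. Of 22 imprinted genes 8 rose and 1 fell (median 0.69). Igf2 stood at 7.58 and 7.54 in the ES arrays and at 12.33 and 9.49 in the Flk1+ arrays, Peg3 at 10.79 and 10.39 against 13.51 and 13.38, Plagl1 at 8.91 and 8.48 against 10.50 and 10.62 and the Igf2 receptor Igf2r at 6.78 and 7.39 against 9.16 and 8.64, and all 4 rose. With probe sets open to cross-hybridisation set aside the change of Plagl1 was 0.07. Mest (-0.18) and Snrpn (-0.25) did not pass, nor did Meg3 (0.18), whose 11 probe sets had changes from -2.12 to 0.71.

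Of 21 glycolysis genes 2 fell and 0 rose, beside 6.30% and 6.15% of all genes. The 2 were Pdk1 (12.14 and 12.14 to 10.97 and 9.39), which holds pyruvate back from oxidation in the mitochondria, and Pfkp (-1.12). The call of Pfkp was lost without ES replicate 2 (-0.95) and without Flk1+ replicate 2 (-0.85). Among 23 genes of ES cell amino acid, folate and lipid metabolism 7 fell and 2 rose. The transporters Slc7a3 (12.67 and 12.43 to 9.28 and 9.60) and Slc7a7 (-2.30) and the glycine cleavage enzyme Gldc (11.67 and 11.65 to 9.43 and 10.31) fell. Of 28 cell cycle regulators 3 rose and 4 fell, where 6.15% of all genes rose and 6.30% fell. Cyclin D2 (Ccnd2) rose from 7.33 and 6.37 to 9.58 and 9.32, while cyclin D1 did not pass (0.12), and cyclin E1 (Ccne1, 12.77 and 12.72 to 11.27 and 11.65) and Cdk2 (-1.15) fell. Of 11 housekeeping genes B2m, the light chain of MHC class I, rose (8.28 and 8.75 to 11.48 and 10.25), and the other members had changes from -0.77 (Tbp) to 0.28 (Gusb).

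Immediate early genes, which cells switch on within minutes of a stimulus, were among the classes with most increases: 15 of 24 rose and 0 fell (median 1.24). Fos stood at 8.03 and 7.86 in the ES arrays and at 13.96 and 13.67 in the Flk1+ arrays (5.87 ± 0.22), Fosb at 4.59 and 4.47 against 10.62 and 10.63, Jun at 7.0 and 6.57 against 10.71 and 10.76, and Egr2 at 5.26 and 4.94 against 9.38 and 9.75, and all 4 rose. Egr1 (2.58), Atf3 (2.56), Ier5 (2.98), Btg2 (1.94) and Zfp36 (1.41) rose, with the Flk1+ arrays less than 1 log2 unit apart. The matrix protein Ccn1 rose (2.30), and its call was lost without ES replicate 2 (2.05) and without Flk1+ replicate 2 (1.88). Ier2 (-0.56) and Gadd45b (0.04) did not pass. The brightest probe set of Egr3 did not pass either (-0.23), but its other probe set gave 5.11, so that no call is made for this gene. The Flk1+ cells were detached with trypsin, stained and sorted before lysis, and the ES cells were not sorted, so handling and cell state cannot be told apart for this class. Of 16 heat shock genes, another class that handling can move, 2 rose, Hspa5 (1.19) and Bag3 (1.18). In this class 1 fell, Hspb1 (12.21 and 12.12 to 10.65 and 9.55). Over all genes 6.15% rose and 6.30% fell, so these counts give no result about the class. The call of Hspa5 was lost without ES replicate 2 (0.92).

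**Figure D2:**
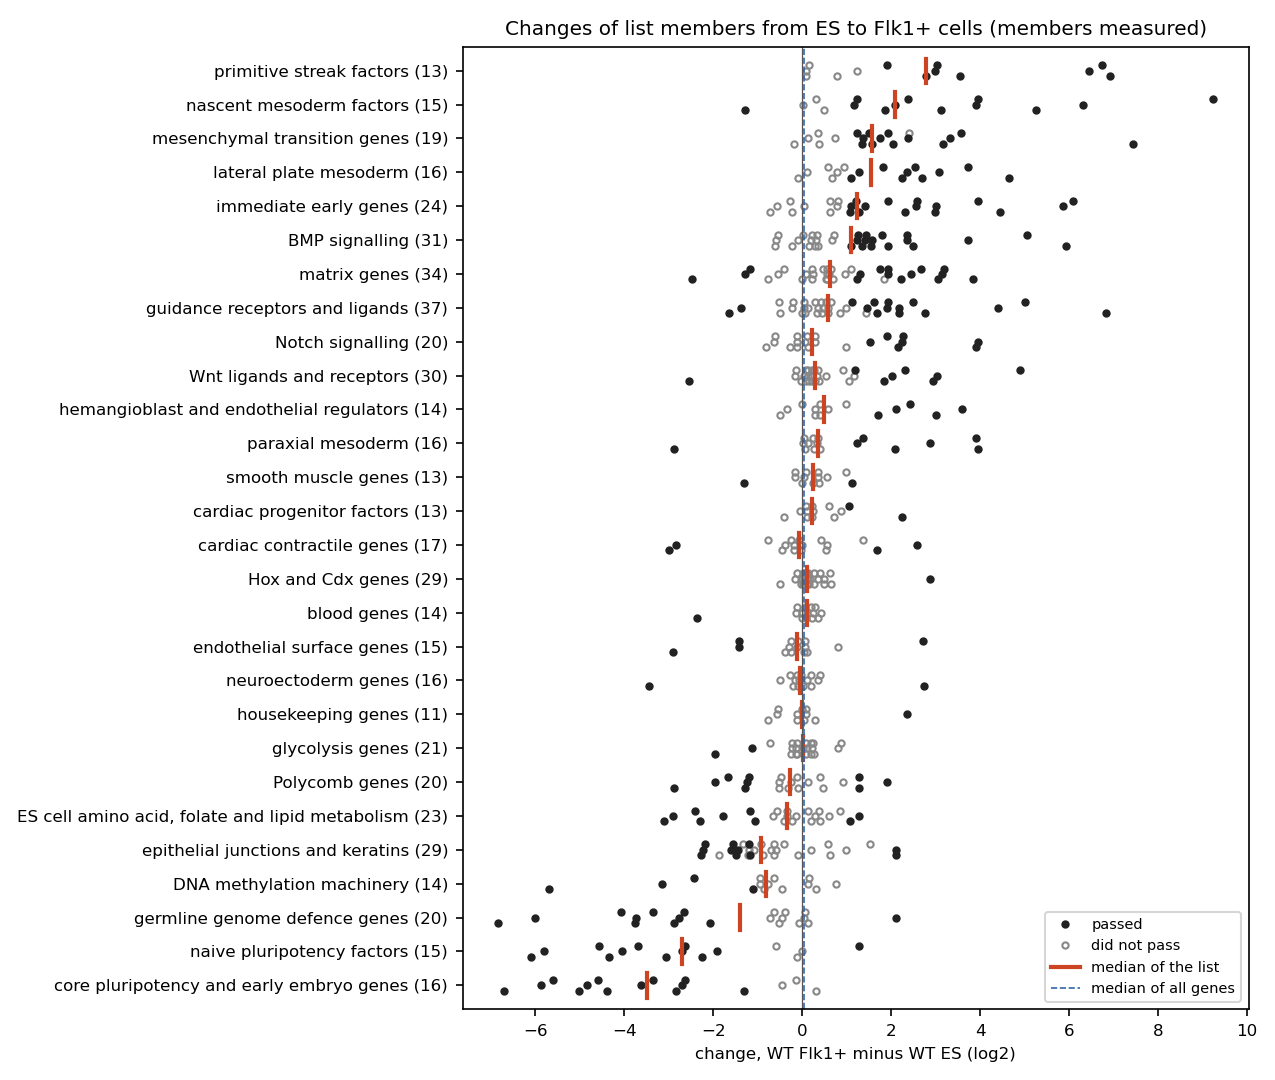
Change from WT ES to WT Flk1+ cells (horizontal axis, log2) of every measured member of 28 gene lists (vertical axis, with the number measured). Filled points passed, open points did not, red bars are list medians and the dashed line is the median of all genes (0.03). The medians run from -3.49 for core pluripotency genes to 2.78 for streak factors.

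The Flk1+ arrays differed from each other mostly in 1 direction. In replicate 2, the transgenic clone, 782 genes were at least 2-fold lower than in replicate 1, the parental line, and 98 were higher. Of the 782, 153 had risen and 135 had fallen in the comparison with ES cells. The furthest apart were Ptgs2, a prostaglandin synthase, at 9.44 and 4.17, Emp1 at 9.86 and 4.69, Prss23 at 11.30 and 6.23, Vnn1 at 9.94 and 4.95, Vgll3 at 10.04 and 5.25 and the chaperone Cryab at 10.41 and 5.77. In replicate 2 all 6 were at or below the lower ES array, and in both WT Dex- arrays they stood above replicate 1, for example Ptgs2 at 12.27 and 12.11 and Cryab at 13.17 and 13.12. Annexin A1 (Anxa1), at 12.31 and 7.83, had the same arrangement. Galectin 3 (Lgals3), at 10.44 and 5.88, did not, since its Dex- arrays (10.05 and 9.57) stood below replicate 1. The 8 genes furthest the other way were Usp53 (5.70 and 7.71), Lmo1 (8.67 and 10.49), Txnip (5.91 and 7.74), Dll1 (10.12 and 11.86), Cdca7l (10.15 and 11.88), Nptx2 (6.5 and 8.2), Otx2 (10.16 and 11.84) and Sp5 (8.11 and 9.78). In DKO, replicate 2 minus replicate 1 was 2.52 for Usp53, 1.80 for Lmo1 and 3.03 for Txnip. It was 0.13 for Dll1, 0.22 for Cdca7l, 0.88 for Nptx2, 0.42 for Otx2 and -0.07 for Sp5. The Flk1+ arrays of DKO cells had the same arrangement of lines, scan days and chip lots, and there 102 (13.0%) of the 782 genes were at least 2-fold lower in replicate 2 and 33 (33.7%) of the 98 were at least 2-fold higher. Of all 18194 genes 358 were at least 2-fold lower and 340 higher in replicate 2 of DKO, without the excess of lower genes seen in WT. The median difference of the 782 was -1.43 in WT and -0.34 in DKO. Line, scan day and chip lot were not separated by the design within the group, and their part in the difference was not tested.

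By list, replicate 1 stood above replicate 2 for epithelial genes (-0.17 against -1.61 as median change from ES), matrix genes (1.16 against 0.14), primitive endoderm genes (0.95 against 0.02) and Hox cofactors (1.03 against 0.21). It stood close to it for streak factors (2.70 against 2.78) and Notch signalling (0.23 against 0.22). Lateral plate genes (1.59 against 1.29) and naive pluripotency (-2.52 against -2.95) lay between by these medians. Taken gene by gene, the median of replicate 2 minus replicate 1 was -0.60 for lateral plate genes, with 6 of 16 at least 2-fold lower and 0 higher. It was -0.65 for naive pluripotency and -0.19 for Hox cofactors, so the 2 measures order the lists differently.

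**Figure D3:**
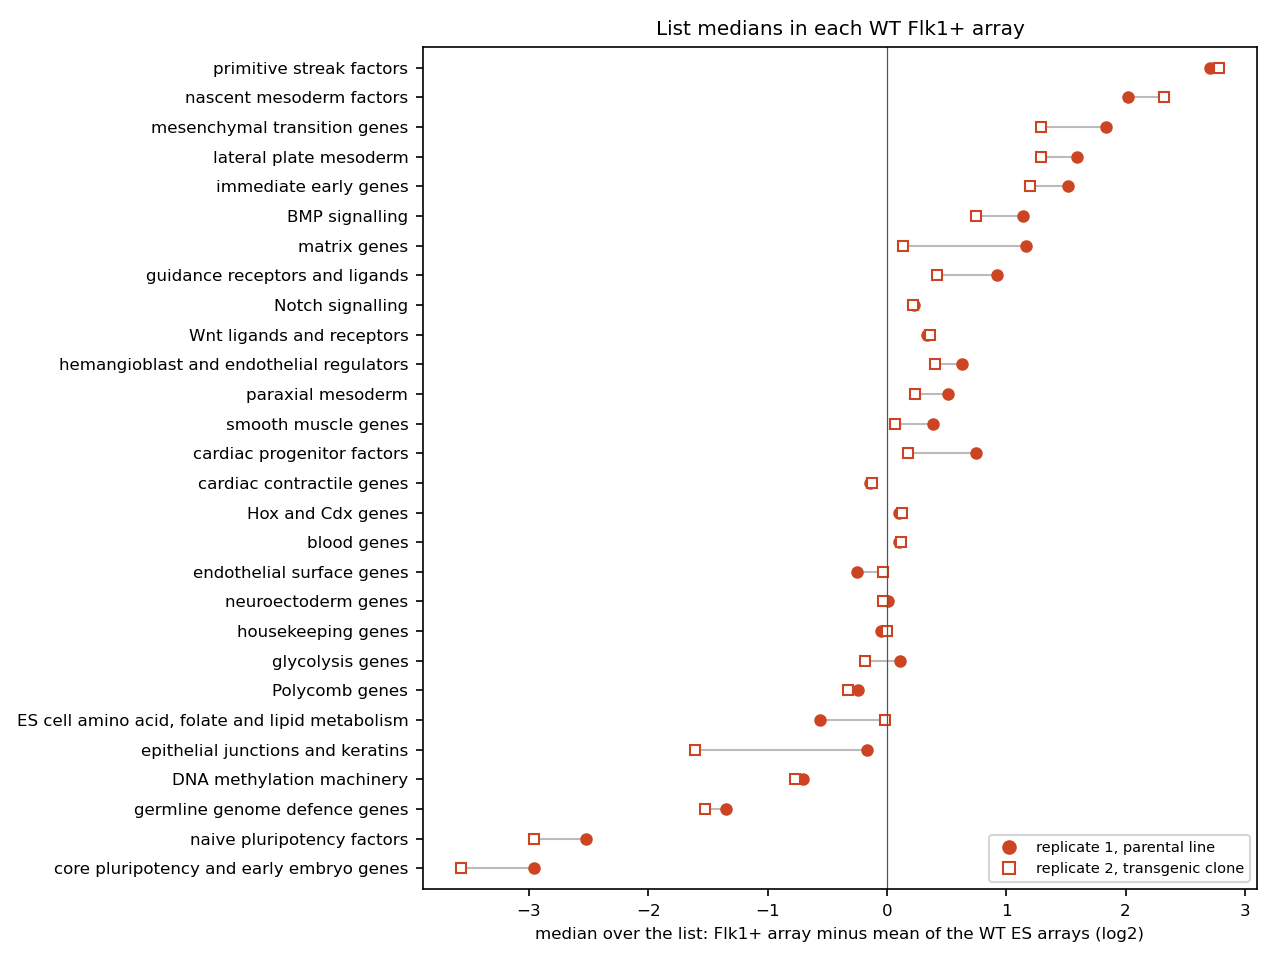
Median over 28 gene lists of the change from the mean of the WT ES arrays (horizontal axis, log2), drawn apart for each WT Flk1+ array. Filled circles are replicate 1 (parental line), open squares replicate 2 (transgenic clone), and grey lines join them. The epithelial list is the widest apart, at -0.17 and -1.61, and streak factors stand at 2.70 and 2.78.

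The same step in DKO cells shared no array with the WT step. From DKO ES to DKO Flk1+ cells 830 genes (4.56%) rose and 1023 (5.62%) fell. Of the genes that rose in WT 648 also rose in DKO, which is 57.9% of the WT and 78.1% of the DKO set, and of those that fell 721 did, 62.9% and 70.5%. The change had the same direction in DKO for 97.4% of the genes that rose in WT and 99.0% of those that fell, and 3 genes that rose in WT fell in DKO. The median change of the genes that rose was 1.53 in WT and 1.16 in DKO, and of those that fell -1.49 and -1.24. Since these genes were chosen for their WT values, the smaller medians in DKO are a description. Aplnr (9.09), Eomes (5.86), Mixl1 (6.04) and Mesp1 (3.97) changed in DKO by values near those of WT, and so did Pou5f1 (-3.06) and Tet1 (-2.79). The streak list had a median of 2.78 in WT and 1.5 in DKO, the lateral plate list 1.55 and 2.20, and cardiac progenitor factors 0.23 and 1.02, with 7 of 13 higher in DKO Flk1+ cells. The difference between the genotypes passed for 2 of the 13 streak factors, Gsc (-1.90) and Fgf8 (-1.10), and for 0 of the 16 lateral plate and 0 of the 13 cardiac progenitor genes, so that the contrast of these medians is a description. The cardiac count of WT was itself 2 with both Flk1+ arrays and 6 without replicate 2.

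The test of the difference between the genotypes passed for 37 genes (0.203%) whose change lay above that of WT in DKO and for 107 (0.588%) below it. Of the 37, 29 had fallen in WT, and of the 107, 59 fell in DKO and 40 rose in WT. Among the largest differences, genes that fell by less in DKO were the proteasome subunit Psma8 (-4.97 in WT and -2.44 in DKO), Hsf2bp (-5.43 and -3.02), the RNA helicase Ddx4 (-3.74 and -1.34) and the synaptonemal complex protein Sycp3 (-3.37 and -1.08). Without WT ES replicate 2 the difference for Sycp3 was 2.17, with an adjusted p of 0.075 by limma. In the germline list as a whole 2 of 20 genes passed the difference, Ddx4 and Sycp3, and 18 did not, with a median difference of 0.07. Another set was high in DKO ES cells and low in the other groups of this comparison. Ubtfl1, a gene of the early embryo, had values of 8.25 and 6.58 in DKO ES cells, 3.59 and 3.40 in DKO Flk1+ cells, 3.74 and 3.65 in WT ES cells and 3.53 and 3.56 in WT Flk1+ cells. Usp17la (10.48 and 9.27 in DKO ES and 6.56 and 4.99 in WT ES cells) and Pramel18 (7.74 and 6.37 and 3.99 and 3.66) had the same arrangement. Pdgfrl rose in WT but fell in DKO, from 8.60 and 7.47 to 6.14 and 6.13 (-1.91). In a fit to the 8 arrays of this comparison alone 1 gene passed, none of those named here. The count was 59 without WT ES replicate 2, 88 without DKO ES replicate 2, 250 without WT Flk1+ replicate 1 and 414 without WT Flk1+ replicate 2.

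**Figure D4:**
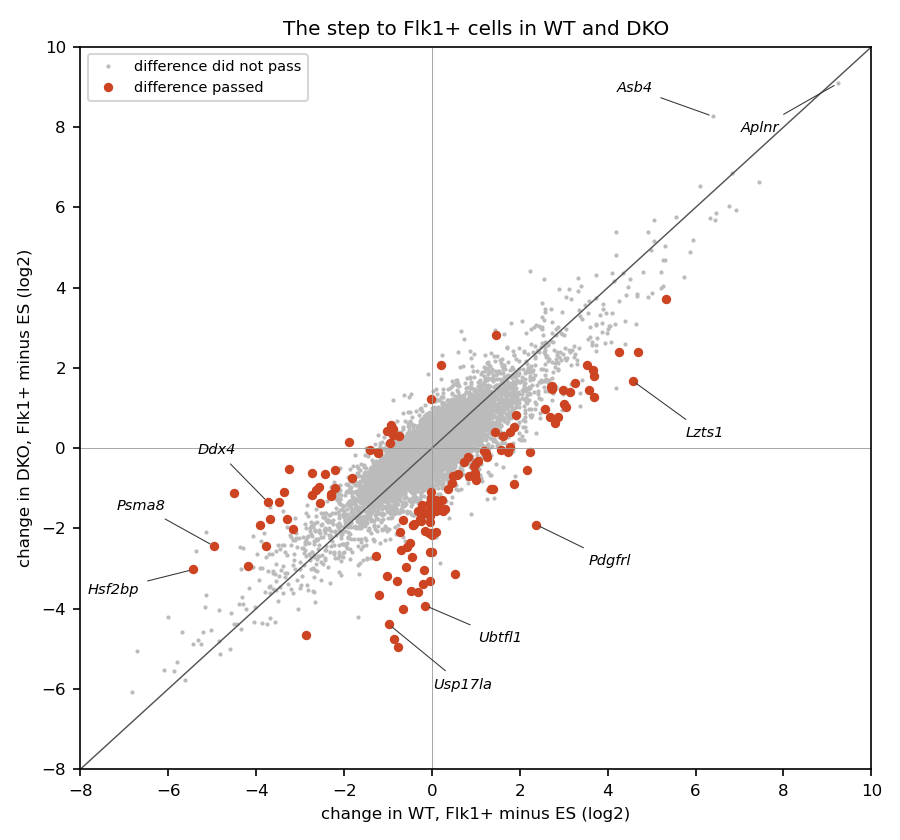
Change from ES to Flk1+ cells of 18194 genes in WT (horizontal axis, log2) and DKO (vertical axis, log2), with the line of equal change. Red points are the 144 genes whose change differed between the genotypes by the adjusted p and 2-fold rule. Aplnr lies on the line (9.24 and 9.09), while Ubtfl1 fell in DKO alone (-3.92).

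The Flk1+ arrays were also set beside primitive endoderm, the other state made from the same ES cells, by 4 days of 100 nM Dex in medium with LIF. This comparison uses the same Flk1+ arrays, so that its values are given side by side with the others and not as further support. In Flk1+ cells 845 genes (4.64%) were higher and 1053 (5.79%) lower than in WT PE. Aplnr (4.26 and 4.09 in the PE arrays), Cdh11 (3.53 and 3.46), Mixl1 (5.69 and 6.12), Gas1 (6.85 and 6.77) and the protocadherin Pcdh8 (4.69 and 4.67 against 9.85 and 10.77 in Flk1+ arrays) were higher in Flk1+ cells, by 8.88, 7.63, 6.52, 5.70 and 5.63. Lower were the endocytic receptor Cubn (11.90 and 12.67 in PE against 5.27 and 4.67 in Flk1+ arrays), Sox17 (-6.78), Srgn (-6.68), the hypoxia factor Epas1 (-6.49), the laminin chain Lama1 (-6.09) and Dab2 (-6.08). Of the 20 primitive endoderm genes 16 were lower in Flk1+ cells than in PE and 0 were higher (median -3.68). Gata6, which had risen from ES to Flk1+ cells, stood at 11.15 and 11.27 in PE. Pdgfra was at least as high in PE (13.19 and 13.19) as in the sorted cells, and Kdr was not (7.15 and 6.97).

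Cells cultured on for 4 days after the sort without Dex showed where these genes stood later. Of all genes 1362 (7.49%) were higher and 1417 (7.79%) lower in WT Dex- than in WT Flk1+ cells, again with the Flk1+ arrays shared. Eomes stood at 5.81 and 5.93 in the Dex- arrays, Mixl1 at 5.65 and 5.83, Mesp1 at 6.49 and 6.25, Lhx1 at 4.70 and 4.34 and Etv2 at 6.02 and 6.13, each near or below the values of its ES arrays. Aplnr (10.80 and 10.26) and Cdh11 (9.89 and 10.44) stood above their ES values by more than 6 log2 units. Pou5f1 (-4.35) and Otx2 (-6.55) were lower in Dex- than in Flk1+ cells. Of the 13 smooth muscle genes 10 were higher in Dex- cells and 0 lower (median 2.85). The fibrillar collagen Col1a2, at 10.03 and 7.51 in the Flk1+ arrays, reached 14.27 and 14.40. Among the 24 immediate early genes 5 were higher and 9 lower, and Fos stood at 12.15 and 12.07. Against PE cells 10 of the 24 were higher and 4 lower in Flk1+ cells.

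**Figure D5:**
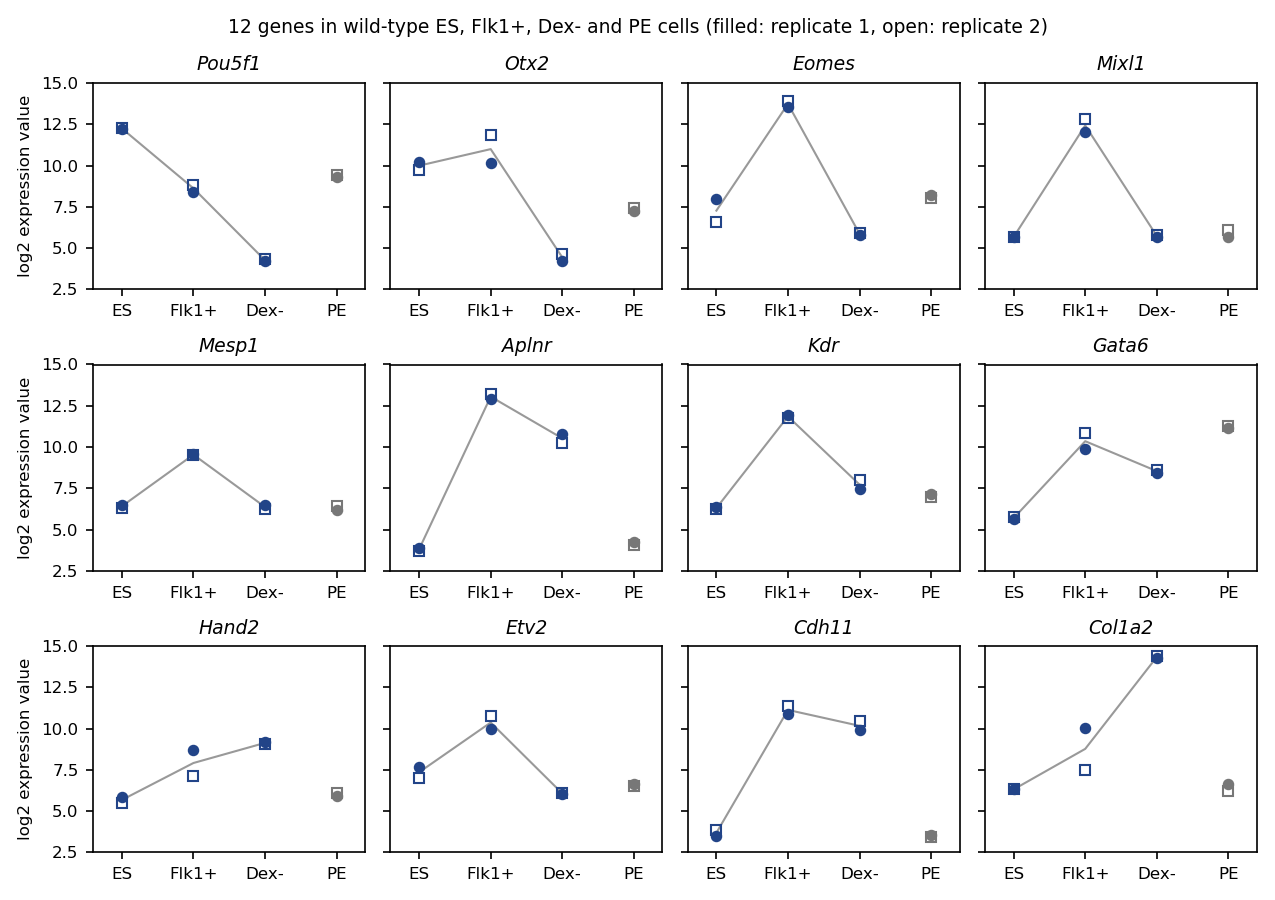
Log2 expression values (vertical axis) of 12 genes in the WT arrays of ES, Flk1+, Dex- and PE cells (horizontal axis). Filled points are replicate 1, open points replicate 2, and lines join the means of ES, Flk1+ and Dex- cells, with PE in grey. Eomes and Mixl1 are high in Flk1+ cells alone (12.03 and 12.83 for Mixl1), whereas Col1a2 is highest in Dex- cells (14.27 and 14.40).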

How the data were processed

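The deposited values were log2 expression values per probe set of the Affymetrix MOE430v2 array, which the authors computed with RMA (robust multi-array average: background correction, quantile normalization and a summary over probes). The RMA version is not given in the sources used here. RNA had been amplified in a two-cycle labelling. Of 45101 probe sets 34958 had 1 gene symbol in the platform annotation, 932 had several and 9211 none. For each of 18194 genes the brightest of its single-gene probe sets, by the mean of the 20 arrays, was used. All 20 arrays entered 1 fit in limma 3.58.1 (R 4.3.3), with a term for each group, so that the groups shared 1 estimate of the spread (lmFit and eBayes, Benjamini-Hochberg adjustment over all genes), since a permutation method such as the SAM of the study has too few regroupings of 2 against 2 arrays. Tables and figures were made with Python 3.11.15, pandas 2.3.3, numpy 2.4.6 and matplotlib 3.10.9.

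Named were the 15 largest increases and decreases that passed with arrays not overlapping, the members with the largest changes and the best known members of 46 gene lists (836 of 878 entries measured), and the 8 largest differences each way in the other comparisons. The gene lists and members were chosen with earlier results of these data known. The number of arrays, 2 in each group, limits the precision. In simulated data 43 of 100 genes changed 2-fold and 98 of 100 changed 4-fold were recovered. The simulated arrays were independent and had the same spread in every group. The real WT Flk1+ arrays were further apart than those of any other group, so these shares may be too high here. Genes changed by 2-fold lie at the limit of the rule itself, so their share does not measure the number of arrays alone. Replicate numbers did not pair the states: the deviations of same-numbered arrays from their group means correlated at 0.03 between WT ES and Flk1+ cells and at -0.09 in DKO. Alternatives were another probe set rule, a filter on low values, repeated quantile normalization, other variance models, the replicate number, scan day or chip lot as a block, and leaving out each array.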

Additional observations from a re-analysis of the deposited data

Results flagged for a closer look

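Between the genotypes 144 genes had a different change from ES to Flk1+ cells by the interaction term of the limma fit over all arrays, and the largest differences each way (DKO change minus WT change, log2) are given here. Above WT lay Exoc3l (2.73), Psma8 (2.53), Hsf2bp (2.41), Ddx4 (2.40), Sycp3 (2.28), Insyn2b (2.12), Itpk1 (2.04) and Rpl39l (2.01). Psma8, Hsf2bp, Ddx4, Sycp3 and Rpl39l fell in both genotypes, and Itpk1 fell in WT (-1.89) and had a change of 0.15 in DKO. Below WT lay Pdgfrl (-4.28), Ubtfl1 (-3.77), Usp17la (-3.41), Ccser1 (-3.28), Arg2 (-3.27), Pramel18 (-3.18), Spesp1 (-3.10) and Lzts1 (-2.89). Lzts1 rose in both genotypes, by 4.57 in WT and 1.68 in DKO. Ccser1, Arg2, Spesp1, Pramel18, Usp17la and Ubtfl1 were high in DKO ES cells and low in the other 3 groups.

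None of these 16 genes kept its call in a fit to the 8 arrays of the comparison alone. Without WT ES replicate 2 the calls of Sycp3 (2.17), Ccser1 (-3.27), Arg2 (-3.03) and Lzts1 (-2.80) were lost. The call of Arg2 was also lost without DKO Flk1+ replicate 1 (-3.03), and that of Lzts1 without DKO ES replicate 1 (-2.80). Rpl39l lost its call without WT ES replicate 1 (1.66), DKO ES replicate 1 (2.06) or DKO ES replicate 2 (1.97). With the mean of all probe sets of a gene the difference for Itpk1 was 0.99, under the 2-fold limit.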

How the results depend on the processing

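The counts for WT Flk1+ against ES cells (2266, with 1741 to 2652 in the alternatives), for the DKO step and for Flk1+ against PE and Dex- against Flk1+ cells stayed within 1.5 times of the value given in every alternative run. The 144 genes of the difference between the genotypes did not: 1 gene passed when only the 8 arrays compared entered the fit, 35 with the lowest 40% of genes left out, 316 without both parental-line Flk1+ arrays and 254 with the chip lot as a fixed block, an alternative chosen after seeing the data. Leaving out 1 array gave 59 (without WT ES replicate 2) to 414 genes (without WT Flk1+ replicate 2). The cause was not tested.

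With the replicate number as a block, although the numbers did not pair the states, 2284 genes passed for WT Flk1+ against ES cells, 1859 for the DKO step, 1909 against PE, 2789 for Dex- cells and 141 for the difference between the genotypes.

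Of 287 genes followed in the WT step, none changed sign in any alternative. With the mean of all probe sets of a gene 47 lost the call, among them Acvr1, Axin2, Bmpr2, Cdk2, Eed, Fzd7, Grhl2, Hand2, Mmp14, Mtf2, Ncam1, Ntn1, Rxra, Sox4, Ttn and Vcan. In a fit to the 4 arrays alone 41 did, among them Col18a1, Col1a2, Gata3, Hoxb1, Igf2, Lefty1, Pdk1 and Tbx20. With the chip lot as a block 22 did, among them Cdh1, Jarid2, Pdgfc and Pecam1, and with probe sets open to cross-hybridisation set aside 8 of 283. Of 175 named or listed genes that passed and had over 1 probe set, 157 had all probe sets in 1 direction. None of the 175 had a probe set at least 2-fold the other way.

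With 2 arrays a group and another line in Flk1+ replicate 1, small changes rest on few values, and in the low range of the array they are compressed. All ES arrays were scanned on 1 day that held no Flk1+ array, so scan day and state cannot be told apart.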
